A study of Mus musculus with 10 samples.

Results

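Collagens are the proteins that give the extracellular matrix its tensile strength and the basement membrane its mesh, and the hippocampus makes them mainly outside its neurons, in the vessel walls, the meninges that line its surface and the choroid plexus that lies against it. The collagen genes described here were all those whose single symbol in the platform annotation has the form Col, a type number, a and a chain number, with 1 transcript cluster per gene, the one with the highest mean over the 10 arrays. There were 44 of them among the 19938 genes that the array measures with a single-symbol transcript cluster, a transcript cluster being the set of probes spread along a transcript. By their type, 9 were fibrillar (types I, II, III, V and XI), 8 belonged to the basement membrane (types IV, XV and XVIII) and 27 to the other types.

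RNA was taken from the whole hippocampus, both sides together, of male mice of 16 weeks. The Tg(Dyrk1a) mice carry Dyrk1a, the gene of a protein kinase, as an extra copy on a bacterial artificial chromosome that holds the gene with its own flanking sequence, so that its expression is not limited to a cell type, and the wild-type mice were their littermates without the transgene. Each genotype gave 5 arrays, 1 mouse per array, which the labels call biological replicates. The labels give the genetic background as C57BL/6N, whereas the study's methods name C57BL/6J, and both apply to all 10 mice. The question put to the collagens was whether an excess of Dyrk1a moves their transcripts in the hippocampus, and whether the fibrillar and the basement membrane collagens move apart.

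Levels are given on the log2 scale of RMA, the robust multi-array average that turns probe intensities into 1 value per transcript cluster, and a difference of 1 is a doubling. The medians of the arrays over all rows of the table lay between 6.58 and 6.66. Dyrk1a itself was measured at 11.65 ± 0.02 (SD, n = 5) in Tg(Dyrk1a) and 11.18 ± 0.06 (SD, n = 5) in wild-type mice, and its 2 groups did not overlap (log2 fold change 0.47 ± 0.03 SE, adjusted p = 0.000138 by limma), which fits the labels. Markers of hippocampal neurons fitted the labelled tissue, with Prox1, a transcription factor of the dentate gyrus, at a mean of 10.03 in Tg(Dyrk1a) and 9.91 in wild-type mice and Neurod6, of the pyramidal neurons, at 10.03 and 10.02. The tissue also held pieces of its surroundings in unequal amounts. Ttr, the transthyretin gene that defines the choroid plexus, stood at 13.02 to 13.24 in 3 arrays (Tg(Dyrk1a) replicates 2 and 4 and wild type replicate 5) and at 7.97 to 12.02 in the other 7, and the score of thalamus and habenula markers was 0.50 in wild type replicate 5 against -0.12 to 0.13 in the others.

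A collagen chain is translated into the endoplasmic reticulum, hydroxylated on proline and lysine, joined with other chains into a triple helix and exported. Fibrillar collagens are then trimmed at both ends and assemble into cross-linked fibrils, type IV collagen builds the network of the basement membrane around vessels and under the meninges, and types XV and XVIII join that membrane to the tissue beside it. The remaining types decorate fibrils, form beaded filaments or open networks, anchor epithelia or span the cell membrane. Type VIII, a short network collagen made of the chains of Col8a1 and Col8a2, is known from vessel walls and from the membrane under the corneal endothelium. Its genes carried the largest differences of the family, so the stretches in front of their starts are shown here. Both are the 250 bases before the annotated start of the gene, from RefSeq for GRCm38.p6, the patch release of the mm10 build, and read 5′ to 3′ along the gene's strand. Capitals mark GGGCGG or its reverse complement CCGCCC, the box that GC-rich promoters often hold.
Col8a1: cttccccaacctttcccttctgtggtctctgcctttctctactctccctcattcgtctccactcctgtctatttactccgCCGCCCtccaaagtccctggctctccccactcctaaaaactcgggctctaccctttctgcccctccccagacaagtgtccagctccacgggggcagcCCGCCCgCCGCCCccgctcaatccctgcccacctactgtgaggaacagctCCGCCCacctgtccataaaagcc
Col8a2: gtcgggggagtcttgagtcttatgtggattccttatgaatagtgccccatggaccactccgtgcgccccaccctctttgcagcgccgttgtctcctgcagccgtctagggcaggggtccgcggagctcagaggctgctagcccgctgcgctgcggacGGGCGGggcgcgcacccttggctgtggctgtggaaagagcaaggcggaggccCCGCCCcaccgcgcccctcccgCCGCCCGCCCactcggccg
The first lies at chr16:57754738-57754987 on the minus strand and the second at chr4:126286544-126286793 on the plus strand. Each held GGGCGG 4 times, counting both strands, and neither held CCAAT or TATAAA. The bases were 60.8% G or C before Col8a1 and 70.0% before Col8a2.

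Col8a2, on the plus strand of chromosome 4 from 126286794 to 126314330, was the 1 collagen gene whose genotypes did not overlap. Its values were 6.34, 6.34, 6.31, 6.25 and 6.30 in Tg(Dyrk1a) replicates 1 to 5 and 6.51, 6.41, 6.44, 6.37 and 6.40 in wild type replicates 1 to 5. Every Tg(Dyrk1a) mouse thus lay below every wild-type mouse, with a gap between the groups smaller than the range within either. All of these values lay below the lowest array median, 6.58, although the gene was not among the dimmest 30% of transcript clusters. The mean was 6.31 ± 0.04 (SD, n = 5) against 6.43 ± 0.06 (SD, n = 5). The log2 fold change was -0.12 ± 0.03 (SE), with a 95% interval of -0.19 to -0.04, or 0.923-fold. It did not pass the test over all transcript clusters, since its adjusted p by limma was 0.947, with an unadjusted p of 0.00569. By exact permutation of the genotypes p was 0.00794 (two-sided), which no split of the 10 arrays can go below. Groups that do not overlap were found in 0.807% of all 23410 annotated transcript clusters (0.534% with Tg(Dyrk1a) higher and 0.273% with Tg(Dyrk1a) lower).

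Col8a1, the partner chain on the minus strand of chromosome 16 from 57624256 to 57754737, was singled out after its values were seen. It stood at 6.39, 7.24, 6.51, 7.23 and 6.35 in Tg(Dyrk1a) replicates 1 to 5 and at 6.30, 6.41, 6.34, 6.60 and 7.31 in wild type replicates 1 to 5. The high values were those of 3 mice, of both genotypes, and the rest were low. These were the 3 rich in choroid plexus, at 7.23 to 7.31, while the other 7 lay between 6.30 and 6.60. Within a genotype its SD was 0.44 on the log2 scale, against 0.12 for the next collagen gene, a median of 0.08 over the family and a median of 0.07 over all annotated transcript clusters. The log2 fold change of 0.15 ± 0.22 (SE) had a 95% interval of -0.33 to 0.63, so that the genotypes were not told apart. With 1 array left out it ran from 0.03 (without Tg(Dyrk1a) replicate 2 or 4) to 0.33 (without wild type replicate 5), and without all 3 choroid-rich arrays it was 0.005. Col8a2, in the same 3 mice, was at 6.34, 6.25 and 6.40. The value of Tg(Dyrk1a) replicate 4 was the lowest of all mice, while Tg(Dyrk1a) replicate 2 and wild type replicate 5 lay inside the range of their groups.

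**Figure D1:**
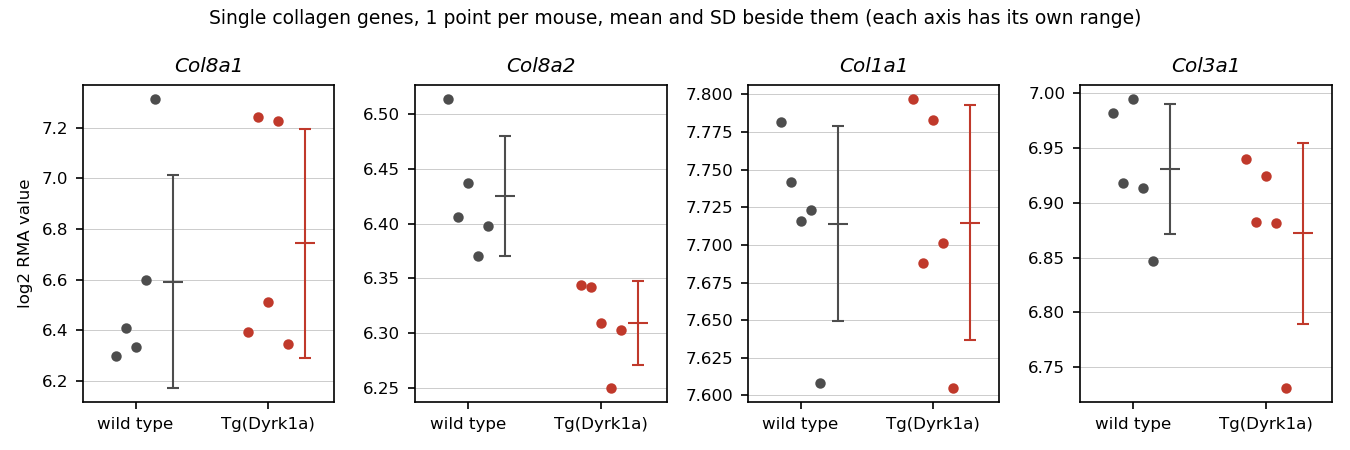
Log2 RMA values of 4 collagen genes in each mouse (points), with the mean and SD of the genotype beside them and a separate vertical range for each gene. Col8a1 has 3 high mice of both genotypes, Col8a2 has all Tg(Dyrk1a) mice (6.25 to 6.34) below all wild-type mice (6.37 to 6.51), and Col1a1 and Col3a1 overlap between the genotypes.

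Over the whole family, no collagen gene passed the test between the genotypes. By limma, 0 of 44 passed an adjusted p of 0.05 (the smallest was 0.947), where 0.00854% of all annotated transcript clusters did. At an unadjusted p of 0.05, 0 were higher and 1 was lower (Col8a2), where 4.93% of all transcript clusters passed in either direction, 2.99% higher and 1.94% lower. FCROS, the rank method of the study as rewritten for these values, put 2 collagen genes on the lower side (Col7a1 and Col8a2) and 0 on the higher side, where it called 4.83% of all transcript clusters, 2.72% higher and 2.11% lower. These shares lie near the background. The 95% interval of a collagen gene reached a median of 0.11 to either side of its estimate, so that for most members a difference of more than about that size beyond the estimate lay outside the interval.

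The differences were small and leaned downwards. In Tg(Dyrk1a) mice 33 of the 44 collagen genes, 75.0%, had a log2 fold change below 0, where 49.1% of all transcript clusters did. The median of the 44 was -0.04, against 0.001 over all transcript clusters. The lean was of the same order in each class, with 7 of 9 fibrillar, 6 of 8 basement membrane and 20 of 27 other collagen genes below 0. The number below 0 was 33 after quantile normalization and 29 after each array was centred on its median, which moved the median of all transcript clusters to 0.016. It was 26 to 37 with 1 array left out, lowest without Tg(Dyrk1a) replicate 2 and highest without Tg(Dyrk1a) replicate 1 or wild type replicate 5. With the leptomeninges score as a covariate it was 16, the only setting run in which most collagen genes were not below 0.

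**Figure D2:**
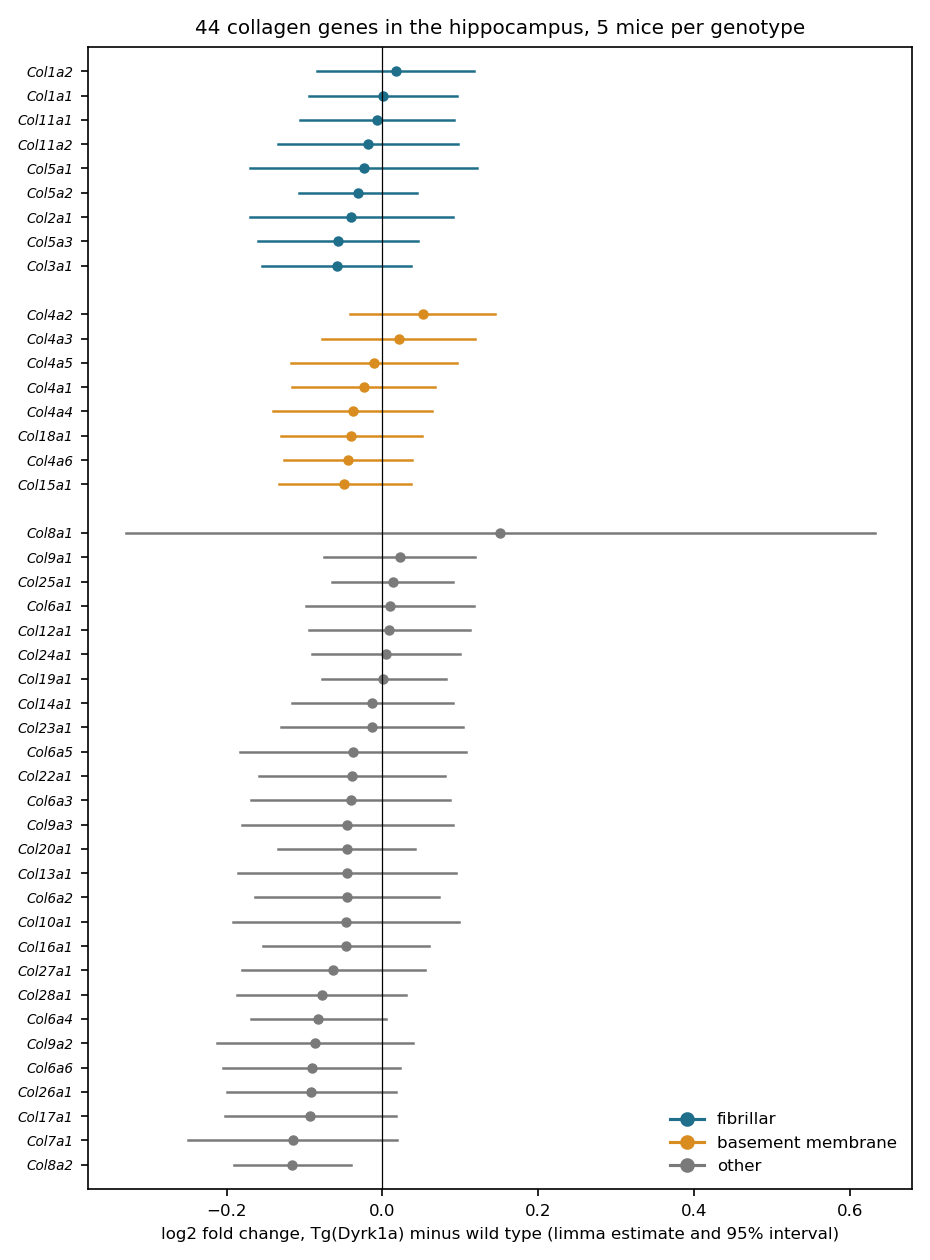
Log2 fold change of each collagen gene, Tg(Dyrk1a) minus wild type, as the limma estimate (point) with its 95% interval (line), sorted within the fibrillar, basement membrane and other collagens. The interval of Col8a2 (-0.19 to -0.04) is the 1 that leaves out 0, and that of Col8a1 (-0.33 to 0.63) is the widest.

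Among the fibrillar collagens the log2 fold changes ran from -0.06 to 0.02, with a median of -0.02. Col3a1, the chain of type III collagen that accompanies type I in vessel walls and meninges, had the smallest p of the class. It was measured at 6.94, 6.88, 6.93, 6.88 and 6.73 in Tg(Dyrk1a) and at 6.98, 6.92, 7.00, 6.91 and 6.85 in wild-type mice, replicates 1 to 5 in each. The groups overlapped, and 4 of the 5 Tg(Dyrk1a) mice lay below the wild-type mean. Its log2 fold change was -0.06 ± 0.04 (SE, adjusted p = 0.952 by limma).

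Type V collagen, which sits inside type I fibrils and sets their width, followed. Col5a3 had means of 6.88 ± 0.10 (SD, n = 5) with the transgene and 6.93 ± 0.05 (SD, n = 5) without it, and differed by -0.06 ± 0.05 (SE). Col5a2, at 5.97 ± 0.06 (SD, n = 5) and 6.00 ± 0.04 (SD, n = 5), differed by -0.03 ± 0.04 (SE). In both, the ranges of the genotypes overlapped.

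The chains of type I collagen, the main fibril former of the body, are added here because they are its best known members and were picked after their values were seen. Col1a1 was measured at 7.80, 7.69, 7.78, 7.70 and 7.61 in Tg(Dyrk1a) and at 7.78, 7.74, 7.72, 7.72 and 7.61 in wild-type mice. The groups covered the same range, and the log2 fold change was 0.001 ± 0.044 (SE), with an interval of -0.10 to 0.10. Col1a2, the partner chain, differed by 0.02 ± 0.05 (SE), with an interval of -0.08 to 0.12. Neither interval reached further than 0.12 from 0. Col2a1, Col11a1 and Col11a2, chains of cartilage fibrils, had log2 fold changes of -0.04, -0.01 and -0.02. Col5a1, the remaining chain of type V, had a log2 fold change of -0.02.

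The basement membrane collagens ran from -0.05 to 0.05, with a median of -0.03. Their type IV genes lie in pairs that face away from each other from a shared front. Col4a1 and Col4a2, whose chains make the common network of vessel basement membranes, had log2 fold changes of -0.02 ± 0.04 and 0.05 ± 0.04 (SE). Col4a2 was at 7.44, 7.34, 7.41, 7.56 and 7.38 in Tg(Dyrk1a) and at 7.41, 7.31, 7.34, 7.38 and 7.45 in wild-type mice, and Tg(Dyrk1a) replicate 4 alone lay above all wild-type mice. Col4a1 was at 7.41, 7.29, 7.33, 7.31 and 7.33 in Tg(Dyrk1a) and at 7.50, 7.34, 7.36, 7.31 and 7.29 in wild-type mice, where wild type replicate 1 was the highest. The partners thus had opposite signs, each within the spread between mice.

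Differences in the other pairs were no larger. Their chains form the networks known from the filter of the kidney and, for Col4a5 and Col4a6, from smooth muscle. Col4a3 and Col4a4 on chromosome 1 had log2 fold changes of 0.02 ± 0.05 and -0.04 ± 0.05 (SE). Col4a5 and Col4a6 on the X chromosome had log2 fold changes of -0.01 ± 0.05 and -0.04 ± 0.04 (SE).

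Types XV and XVIII, which carry the antiangiogenic end fragments known as restin and endostatin, were measured by 1 gene each. Col15a1 stood at 7.12, 7.03, 7.08, 7.14 and 7.04 in Tg(Dyrk1a) and at 7.21, 7.03, 7.15, 7.10 and 7.14 in wild-type mice. The groups overlapped, and the log2 fold change of -0.05 ± 0.04 (SE, adjusted p = 0.952 by limma) had the smallest p of the class. Col18a1 was at 7.28 ± 0.09 (SD, n = 5) with the transgene and 7.32 ± 0.03 (SD, n = 5) without it, and its log2 fold change was -0.04 ± 0.04 (SE).

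Col18a1 is also one of the mouse counterparts of the collagen genes on human chromosome 21, with Col6a1 and Col6a2, which lie near it on mouse chromosome 10 and not among the genes that the transgene carries. Col6a1 and Col6a2 encode chains of type VI collagen, the beaded filaments around vessels and cells. Col6a1 was measured at 7.06, 7.03, 7.04, 7.12 and 6.95 in Tg(Dyrk1a) and at 7.15, 6.97, 6.89, 7.11 and 7.03 in wild-type mice, and the log2 fold change was 0.01 ± 0.05 (SE). Col6a2 was measured at 7.21, 6.98, 7.17, 7.00 and 7.14 in Tg(Dyrk1a) and at 7.28, 7.13, 7.14, 7.13 and 7.04 in wild-type mice, and the log2 fold change was -0.05 ± 0.05 (SE). In both, the highest mouse was wild type replicate 1 and the groups overlapped.

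The contrast between the classes was below the spread between mice. The median of the fibrillar collagens minus that of the basement membrane collagens was 0.007 on the log2 scale, and it changed sign with the setting (-0.006 to 0.017 with 1 array left out and -0.009 to 0.026 over all settings). A score per mouse, the mean over a class of each gene's log2 value minus its mean over the 10 arrays, gave the same picture. The fibrillar minus the basement membrane score was -0.01, -0.01, 0.02, -0.01 and -0.01 in Tg(Dyrk1a) replicates 1 to 5 and 0.01, 0.06, 0.02, 0.00 and -0.07 in wild type replicates 1 to 5. All Tg(Dyrk1a) mice lay inside the wild-type range. The means were -0.004 ± 0.015 (SD, n = 5) and 0.004 ± 0.046 (SD, n = 5).

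The other collagens held the members with the largest differences. Besides Col8a2, the smallest p belonged to Col6a4, a later-found chain of type VI, at 6.46, 6.47, 6.54, 6.48 and 6.39 in Tg(Dyrk1a) and 6.49, 6.63, 6.59, 6.48 and 6.57 in wild-type mice. All 5 Tg(Dyrk1a) mice lay below the wild-type mean, but the groups overlapped. Its log2 fold change was -0.08 ± 0.04 (SE, adjusted p = 0.947 by limma). The 6 type VI genes ran from -0.09 (Col6a6) to 0.01 (Col6a1), with a median of -0.04. Second, dimmer transcript clusters of Col6a5 and Col6a6 differed by -0.06 and 0.03, so that Col6a6 had opposite signs in its 2 clusters.

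Col7a1, the collagen of the fibrils that anchor epithelia to the tissue beneath, was at 7.49, 7.18, 7.37, 7.44 and 7.28 in Tg(Dyrk1a) and at 7.55, 7.52, 7.53, 7.42 and 7.32 in wild-type mice. Tg(Dyrk1a) replicates 2 and 5 were below all wild-type mice and the other 3 were within their range. The log2 fold change was -0.12 ± 0.06 (SE), and its adjusted p by limma was 0.947. It ran from -0.15 to -0.07 with 1 array left out (-0.07 without Tg(Dyrk1a) replicate 2) and was -0.02 with the leptomeninges score as a covariate. Col17a1, a transmembrane collagen of the hemidesmosome, differed by -0.09, and with Col13a1 (-0.05), Col23a1 (-0.01) and Col25a1 (0.01) the 4 transmembrane collagens had a median of -0.03. Col25a1 is the member best known from neurons, as the precursor of a component of amyloid plaques, and its wild-type values spanned only 7.61 to 7.66.

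The 9 collagens that attach to fibrils ran from -0.09 (Col9a2) to 0.02 (Col9a1), with a median of -0.04. Among them are Col12a1 and Col14a1, which coat type I fibrils and differed by 0.01 and -0.01, and Col19a1, which interneurons of the hippocampus are known to make and which differed by 0.001. Col24a1 and Col27a1, fibrillar by the build of their chains although outside the fibrillar class used here, differed by 0.005 and -0.06, and counting them as fibrillar left the median of that class at -0.02. Col26a1 and Col28a1 differed by -0.09 and -0.08. Col10a1, the type X collagen of growing cartilage, was the 1 member among the dimmest 30% of transcript clusters, with means of 5.80 and 5.85. Lying above that cut does not show that a gene is expressed. In wild-type mice Col9a2 and Col9a3, at 7.71 and 7.73, read as high as Col1a1 at 7.71. Col2a1, a chain of cartilage fibrils, read 7.155, above Col3a1 at 6.93. How much of each collagen value was background signal was not tested, which limits what the small differences can show.

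The collagens moved together from mouse to mouse more than between the genotypes. The score over all 44 was 0.06, -0.09, -0.01, 0.02 and -0.06 in Tg(Dyrk1a) replicates 1 to 5 and 0.07, 0.02, 0.03, 0.00 and -0.04 in wild type replicates 1 to 5. The highest and second highest mice were of different genotypes, and Tg(Dyrk1a) replicate 2 was the lowest. Means were -0.02 ± 0.06 (SD, n = 5) and 0.02 ± 0.04 (SD, n = 5). Tg(Dyrk1a) replicate 2 had the lowest value of all arrays in 24 of the 44 collagen genes, 54.5%, and in 16.8% of all genes. Wild type replicate 1 had the highest in 15, 34.1%, against 16.6% of all genes, and Tg(Dyrk1a) replicate 1 in 14, 31.8%, against 15.6%.

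This order is beside 2 other measures of the same arrays. The array medians were 6.62, 6.58, 6.60, 6.65 and 6.59 in Tg(Dyrk1a) replicates 1 to 5 and 6.64, 6.62, 6.66, 6.59 and 6.60 in wild type replicates 1 to 5, lowest in the mouse with the lowest collagen score. That mouse, Tg(Dyrk1a) replicate 2, also had the highest choroid plexus score, 1.22. The next lowest collagen scores, -0.06 in Tg(Dyrk1a) replicate 5 and -0.04 in wild type replicate 5, were beside choroid plexus scores of -0.49 and 1.19. Once the array median was a covariate, a setting chosen after seeing the data, 25 of 44 collagen genes were below 0. With the choroid plexus score as a covariate 33 of 44 were below 0, as in the main fit. Without the choroid-rich arrays 32 of 44 were. The part of array brightness and of choroid plexus in the collagen values of single mice was not tested.

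**Figure D3:**
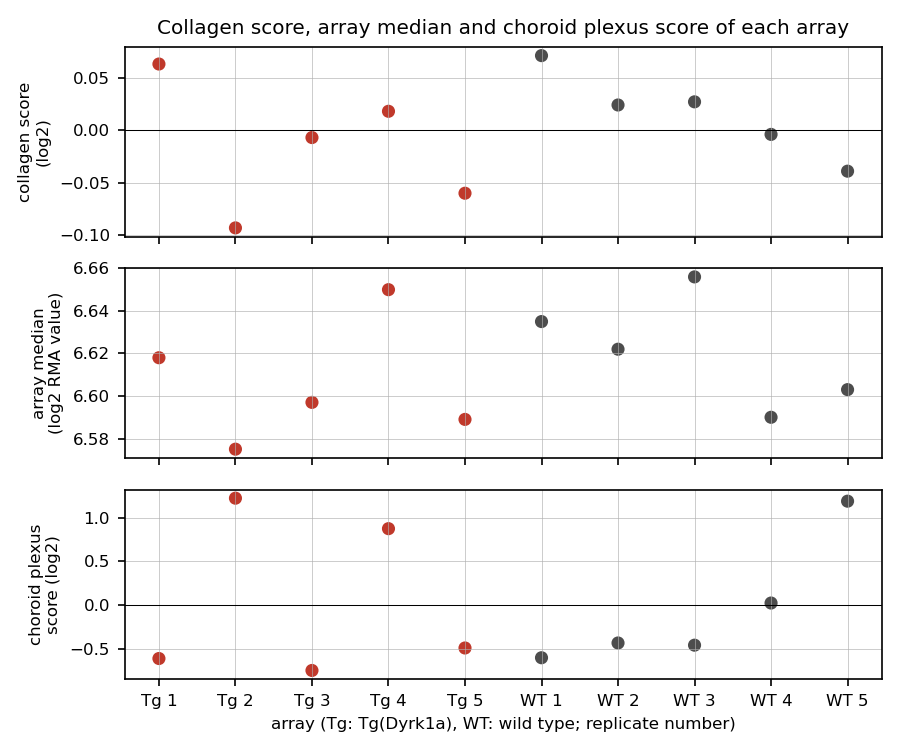
For each array, the collagen score (top), the median log2 value of all rows of the table (middle) and the choroid plexus score (bottom), with Tg(Dyrk1a) in red and wild type in grey and a separate vertical range in each panel. Tg(Dyrk1a) replicate 2 has the lowest collagen score (-0.09), the lowest array median (6.58) and the highest choroid plexus score (1.22).

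Marker lists of the cells that make most collagen had more members higher than lower in Tg(Dyrk1a) mice, where 49.1% of all transcript clusters were below 0 and 2.99% were higher at an unadjusted p under 0.05. Of the 18 leptomeninges markers, 15 were higher in Tg(Dyrk1a) mice, 5 at an unadjusted p under 0.05 and 0 after adjustment, and their score ran from -0.07 to 0.16 in Tg(Dyrk1a) and from -0.19 to 0.12 in wild-type mice. Slc6a13, the GABA transporter that defines the leptomeninges, was 0.34 ± 0.10 (SE) higher. Of the 15 smooth muscle and pericyte markers, 11 were higher, 6 of them at an unadjusted p under 0.05, with scores of 0.00 to 0.12 and -0.16 to 0.01. Acta2, smooth muscle actin, was 0.38 ± 0.10 (SE) higher in Tg(Dyrk1a) mice. Of 14 endothelial markers 13 were higher, with scores of -0.02 to 0.09 and -0.10 to 0.02, and Cldn5, the tight junction gene of brain endothelium, was 0.13 ± 0.07 (SE) higher. None of these 3 genes passed after adjustment (adjusted p = 0.947 for each by limma). Among the other lists, 10 of 12 markers of hippocampal neurons, 11 of 13 of the choroid plexus and 6 of 10 of ependyma were also higher. The same held for 5 of 9 markers of microglia and macrophages and 0 of 12 of thalamus and habenula. At an unadjusted p under 0.05 by limma, 2 of the endothelial and 2 of the neuron markers were higher, and 0 of the choroid plexus, ependyma or microglia markers. Of the thalamus and habenula markers 1 was lower, where 1.94% of all transcript clusters were. In whole tissue, a change in the number of cells of a type and a change in RNA per cell cannot be told apart.

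**Figure D4:**
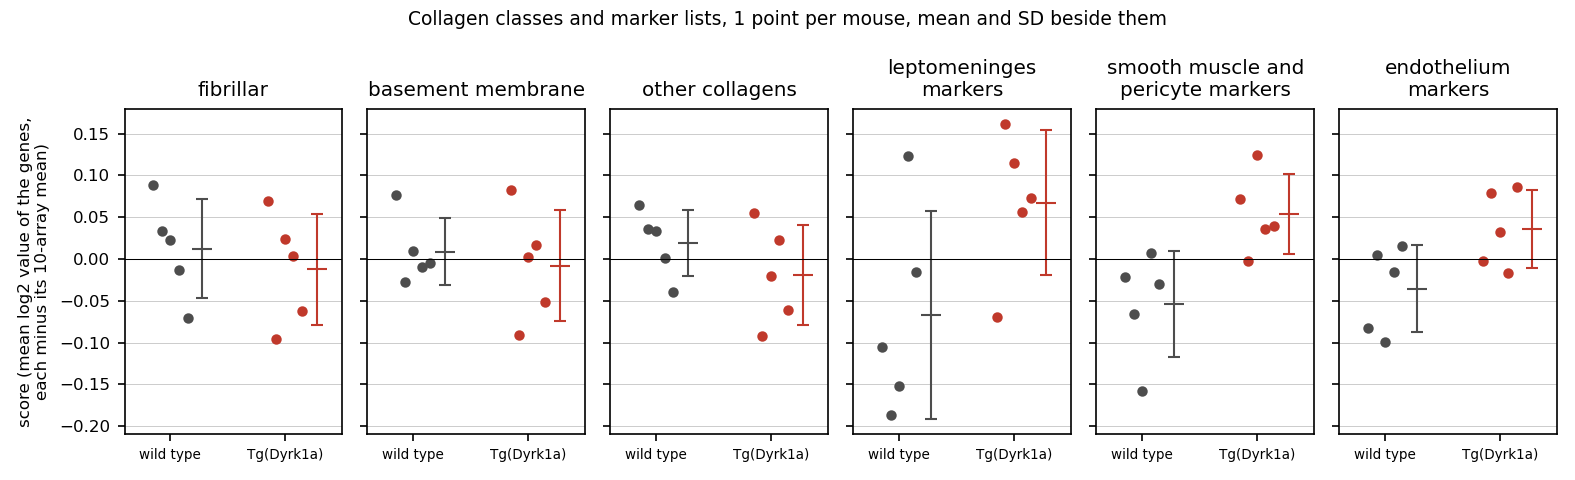
Scores of the 3 collagen classes and of 3 marker lists in each mouse (points), with the mean and SD of the genotype beside them, all on 1 log2 scale. The collagen classes overlap between the genotypes, and the score of smooth muscle and pericyte markers is 0.00 to 0.12 in Tg(Dyrk1a) and -0.16 to 0.01 in wild-type mice.

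The score of type I and III collagens, which fibroblasts of the meninges are known to make, was 0.04, -0.04, 0.06, 0.00 and -0.10 in Tg(Dyrk1a) replicates 1 to 5 and 0.05, 0.05, 0.02, 0.02 and -0.10 in wild type replicates 1 to 5. It was lowest in the fifth mouse of each genotype, where the leptomeninges score was 0.07 and -0.02.

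The genes that make, trim, bind or break down collagen were then taken from 7 lists, 101 of whose 109 members were measured. No member passed after adjustment. The genotypes did not overlap in 2 of the 101, Ddr2 and Reck, both higher in Tg(Dyrk1a) mice. Of all transcript clusters, 0.807% did not overlap, 0.534% with Tg(Dyrk1a) higher. At an unadjusted p of 0.05, 6 of the 101 were higher and 1 was lower, where 2.99% and 1.94% of all transcript clusters were. FCROS put 14 on its higher and 2 on its lower side, where it put 2.72% and 2.11% of all transcript clusters. Their median log2 fold change was 0.02, with 62 members higher and 39 lower, opposite in sign to the collagens themselves. With the leptomeninges score as a covariate 4 members, in place of 7, had an unadjusted p under 0.05 by limma. The background fell as well, from 1154 to 800 of all 23410 transcript clusters.

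Among 16 genes that modify and fold the chains, Plod2, the lysyl hydroxylase that prepares cross-links, had the smallest p. Its values were 5.98, 6.12, 6.14, 6.07 and 6.03 in Tg(Dyrk1a) and 5.85, 5.81, 5.88, 5.92 and 6.02 in wild-type mice. Wild type replicate 5 alone lay inside the Tg(Dyrk1a) range, and the log2 fold change was 0.17 ± 0.04 (SE, adjusted p = 0.947 by limma). Serpinh1, the collagen chaperone, differed by 0.09 ± 0.06 (SE), and P4ha1, the prolyl hydroxylase, by -0.07 ± 0.05 (SE).

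Of 15 genes of export, trimming and cross-linking, Tll1, a protease that removes the C-terminal propeptide, differed by 0.13 ± 0.04 (SE) and Sec24d, a coat protein of the vesicles that carry procollagen, by 0.10 ± 0.04 (SE). Adamts14, which removes the N-terminal propeptide, differed by -0.06 ± 0.03 (SE).

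Of 10 collagen receptors, Ddr2, a receptor tyrosine kinase for fibrillar collagen, was higher in every Tg(Dyrk1a) mouse than in any wild-type mouse. It stood at 7.52, 7.63, 7.54, 7.63 and 7.67 against 7.09, 7.49, 7.27, 7.51 and 7.51, the gap between the groups being narrow. The log2 fold change was 0.22 ± 0.08 (SE), with an adjusted p of 0.947 by limma and an exact permutation p of 0.00794. Itga11, the integrin chain that binds type I collagen, differed by -0.13 ± 0.05 (SE), and Adgrg1, an adhesion receptor for type III collagen in the developing brain, by -0.12 ± 0.06 (SE).

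Of 13 genes of breakdown, Reck, a membrane-anchored inhibitor of matrix metalloproteinases, had the smallest p of all list members. It stood at 8.07, 8.31, 8.13, 8.25 and 8.14 in Tg(Dyrk1a) and at 7.87, 7.99, 7.89, 7.98 and 7.99 in wild-type mice, again without overlap. The log2 fold change was 0.23 ± 0.05 (SE), with an adjusted p of 0.642 by limma. Mmp2, the gelatinase that cleaves type IV collagen, differed by 0.18 ± 0.07 (SE), with Tg(Dyrk1a) replicates 2 and 4 at 7.63 and 7.49 and the other 3 at 7.18 to 7.28. These 2 mice were among the 3 rich in choroid plexus, while the other one, wild type replicate 5, was at 7.21, inside the range of its group. Timp4, another inhibitor of these proteases, differed by 0.07 ± 0.04 (SE).

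None of the 14 partners of the basement membrane, 16 partners of fibrils and 17 genes of TGF-beta signalling, the pathway best known to raise collagen transcription, reached an unadjusted p of 0.05 by limma. Nid1, which links laminin to type IV collagen, differed by 0.12 ± 0.05 (SE), Lamb3 by -0.07 ± 0.05 (SE) and Lamb2, the laminin chain of vessel basement membranes, by 0.05 ± 0.03 (SE). The proteoglycans that bind fibrils had larger but more variable differences, 0.21 ± 0.10 (SE) for Lum, 0.19 ± 0.11 (SE) for Prelp and 0.29 ± 0.17 (SE) for Ogn, and FCROS put 6 of the 16 fibril partners on its higher side, where it put 2.72% of all transcript clusters. Of TGF-beta signalling, Tgfbr2 differed by 0.07 ± 0.04 (SE), Ltbp4 by 0.10 ± 0.06 (SE) and Smad4 by -0.05 ± 0.03 (SE).

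**Figure D5:**
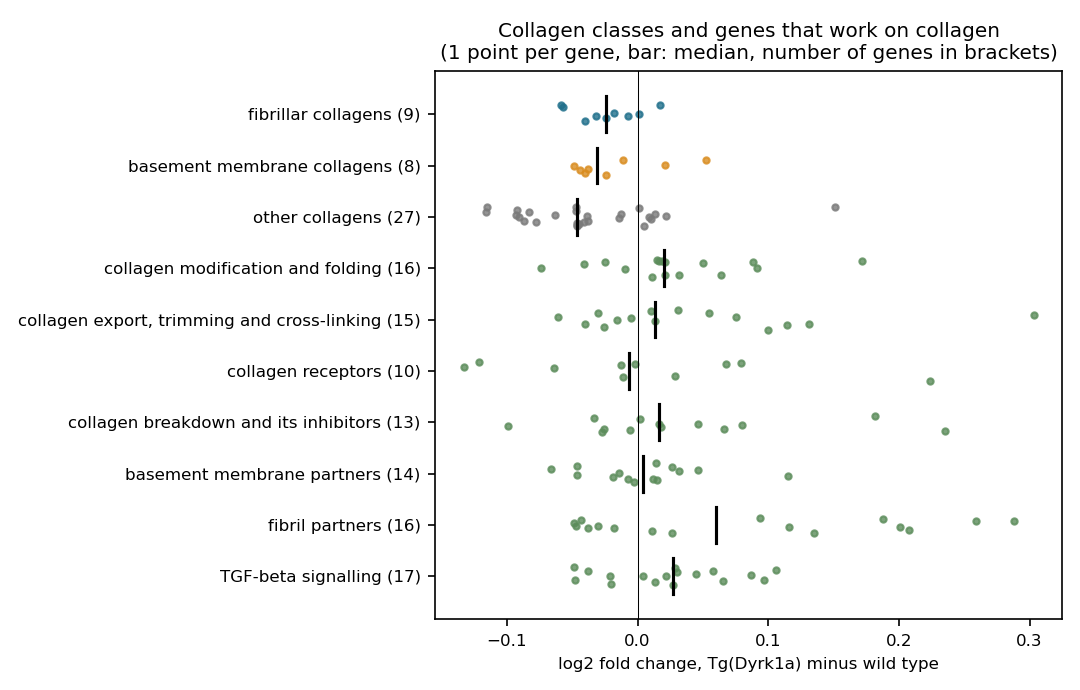
Log2 fold changes, Tg(Dyrk1a) minus wild type, of the collagen genes by class and of the measured members of 7 lists of genes that work on collagen (1 point per gene, bar at the median, number of genes in brackets). The medians of the collagen classes lie at -0.02 to -0.05, and those of the lists between -0.01 and 0.06.

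The fronts of the collagen genes were also searched for short motifs. RefSeq windows of 250 bases before to 50 after the start were found for 35 of the 44 genes, 38 windows in all. GGGCGG, on either strand, was in 23 of them, 60.5%, and in 35.7% of all 32851 windows. CCAAT was in 34.2% against 37.4%, and TATAAA in 13.2% against 13.6%. By class, GGGCGG was in 5 of 6 fibrillar, 5 of 8 basement membrane and 13 of 24 other windows. The fibrillar windows covered 6 of the 9 fibrillar genes. The windows of Col4a1 and Col4a2 overlap, since these genes start at 11312826 and 11312805 of chromosome 8 on opposite strands. The GGGCGG between the starts lies in both windows. The 2 genes of type VIII collagen, shown above, both hold it 4 times and had differences of opposite sign.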

How the data were processed

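Affymetrix Mouse Gene 1.0 ST arrays were hybridised with biotinylated cDNA made from total RNA. The authors deposited log2 values after RMA, which corrects background, brings the arrays to a common distribution and summarises probes, and compresses differences of dim transcript clusters. The submitters' processing notes name RMA, limma and mm10. Scanner intensities were not used here, and no counts or depth exist for arrays, so their number limits the precision.

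Of 35556 rows, 23410 had a gene in the platform annotation (21789 with 1 symbol, 1621 with several) and 12146 had none. The comparison used lmFit and eBayes of limma 3.58.1 under R 4.3.3, without a covariate, with Benjamini-Hochberg adjustment over the 23410. All 44 collagen genes matched RefSeq (GRCm38.p6), which gave positions and sequences. Single genes also had an exact two-sided permutation test over all 252 assignments. FCROS was rewritten from its description, with 25% of ranks trimmed at each end and 0.025 called on each side.

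The members and gene lists were chosen with earlier results of these data known. Genes described were the 3 with the smallest p in each class and each pathway list, those past a threshold, Col6a1, Col6a2, Col18a1 and the type IV pairs, with values of every mouse for some of them. The settings varied were the normalization (quantile), the centring (median), the filter (dimmest 30% left out, or all rows), the variance trend, array weights, a block for the replicate number, mean transcript clusters, FCROS, a wider fibrillar class, leaving out single arrays or the 3 rich in choroid plexus, and the leptomeninges or choroid plexus score as a covariate. The array median as a covariate was chosen after seeing the data.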

Additional observations from a re-analysis of the deposited data

Results flagged for a closer look

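Of 100 groups of 5 arrays tested (the collagen genes and their scores in each genotype), 8 held an array far from the other 4, and chance gives about 1 in 20. In the wild-type group, Col4a3 was 6.433 in replicate 1 against 6.297 to 6.319 in the others, and Col11a1, a minor fibrillar chain, was 6.799 in replicate 4 against 6.973 to 6.991. Wild type replicate 5 was flagged, each time as the lowest, for 4 genes of the other types. These were Col6a5 (6.301), Col9a1 (6.139), Col14a1 (6.454) and Col23a1 (7.278), whose other wild-type values began at 6.445, 6.246, 6.57 and 7.453. It was also the lowest wild-type array for further collagen genes that were not flagged, Col6a2 and Col7a1 among them. That array was rich in choroid plexus and had the highest thalamus and habenula score, whose part in these values was not tested. In the Tg(Dyrk1a) group, Col3a1 was 6.731 in replicate 5 against 6.882 to 6.94, and the fibrillar minus basement membrane score was 0.022 in replicate 3 against -0.014 to -0.005.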

How the results depend on the processing

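Col8a2 kept its direction under every limma setting, with log2 fold changes of -0.13 to -0.09 and unadjusted p of 0.00463 to 0.0482 by limma, and never passed after adjustment. The number of collagen genes lower at an unadjusted p of 0.05 was 4 with array weights, 4 without the choroid-rich arrays and 1 to 6 when single arrays were left out: 6 without Tg(Dyrk1a) replicate 1 (Col6a6, Col7a1, Col8a2, Col17a1, Col26a1 and Col28a1), 2 without Tg(Dyrk1a) replicates 3 or 4 or wild type replicate 1, 3 without wild type replicate 4 and 4 without wild type replicate 5. The background moved as well. Of all 23410 transcript clusters, 1154 had an unadjusted p under 0.05 in either direction in the main fit, and 455 of these were lower. In either direction there were 1526 with array weights, 1272 without the choroid-rich arrays and 874 to 1622 when single arrays were left out. The count was 1588 without Tg(Dyrk1a) replicate 1 and 1622 without wild type replicate 5. The lower transcript clusters alone were not counted in these settings, so the collagen counts have no like background there. FCROS, which has no p over mice, called 2 collagen genes in place of the 1 and of the 0 after adjustment. The latter stayed at 0 without any single array. The collagen genes without overlap were 1 to 2 with an array left out and 3 without the choroid-rich arrays (Col8a2, Col25a1 and Col26a1). Smaller groups fail to overlap more easily, and the share over all transcript clusters was not taken in these settings, so these counts cannot be set against a background.

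With the leptomeninges score as a covariate the medians of fibrillar, basement membrane and other collagens were 0.04, 0.01 and 0.023, and with the array median, a setting chosen after seeing the data, 0.01, -0.01 and -0.01. Leaving out single arrays gave medians of -0.06 to 0.01, -0.06 to -0.01 and -0.072 to -0.013. The pathway count of 7 was 12 with array weights, 11 with the choroid plexus score, 4 with the leptomeninges score and 6 to 13 with an array left out. Over all 23410 transcript clusters the count of 1154 moved in the same directions. It was 1526 with array weights, 1340 with the choroid plexus score, 800 with the leptomeninges score and 874 to 1622 with an array left out.

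Genes near 0 changed sign. Col4a5 was 0.006 after quantile normalization, 0.004 after median centring, 0.021 without the choroid-rich arrays, 0.051 with the leptomeninges score and 0.007 with the array median. Col1a1 was -0.008 after quantile normalization, -0.012 with array weights and -0.012 without the choroid-rich arrays. Col6a1 was -0.012, -0.011 and -0.027 with array weights, without the choroid-rich arrays and with the leptomeninges score, and Col6a2 was 0.001 and 0.002 in the latter 2. The leptomeninges score also gave 0.021 for Col4a1, 0.006 for Col18a1, 0.013 for Col5a3 and -0.097 for Col8a1. With an array left out Col4a1 was -0.042 to 0.012, Col4a3 -0.003 to 0.049, Col4a5 -0.055 to 0.009, Col6a1 -0.026 to 0.039, Col1a1 -0.026 to 0.028 and Col1a2 -0.016 to 0.042. The causes were not tested.

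The replicate numbers did not pair the samples: same-numbered arrays correlated in their deviations at 0.28, 0.01, -0.11, -0.29 and -0.06, and only replicate 1 correlated best with its own number. With the replicate number as a block, 1 collagen gene was lower at an unadjusted p of 0.05, again Col8a2 (-0.116), and 0 passed after adjustment.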
